A study of Mus musculus with 9 samples.

Results

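The V segments of the T cell receptor genes were examined in RNA-seq counts per gene from CD4+ T cells, the lymphocytes known as helper T cells. A segment counted as a member if its symbol began with Trav, Trbv, Trdv or Trgv (the V segments of the alpha, beta, delta and gamma chains) and its raw counts summed to at least 10 over the 9 samples. That rule gave 87 members out of 39017 gene IDs in the table: 62 Trav, 21 Trbv, 3 Trdv and 1 Trgv. The table held 131 V segment rows in all, against 170 V segments in the GENCODE M21 annotation. Of the rows that were not members, 33 had 0 counts in every sample and 11 had between 1 and 9. Just inside the limit were Trav9d-4 with 11 counts, Trav18 with 13 and Trdv2-2 with 13, and just outside it Trav13-3 with 8, Trav6-3 with 7 and Trdv4 with 6.

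The cells came from lymph nodes of male C57BL/6 mice, and the labels give no age. Every sample carried a floxed allele of the X-linked gene Kdm6a, which encodes a demethylase of histone H3 lysine 27, on its single X chromosome. The 5 WT samples (numbered 1, 3, 4, 5 and 9) had the genotype CD4-Cre (-/-), and the 4 cKO samples (2, 6, 7 and 8) were CD4-Cre (+/-), so that Cre driven by the Cd4 promoter was present in the cKO samples only. Since no sample had Cre without the floxed allele, an effect of Cre itself and one of Kdm6a loss cannot be told apart. No label describes a stimulus, whereas the name given to the deposited table refers to one. The labels do not say whether each sample is a different mouse, and the p-values rest on the spread among these 9 samples, part of which may be technical. Kdm6a fell by 0.55 on the log2 scale (SE 0.04, edgeR adjusted p = 2.89e-05), from 62.7 ± 1.59 CPM in WT (CPM are counts scaled to a common library total with TMM; mean ± SD, n = 5) to 42.7 ± 1.48 CPM in cKO (n = 4). These counts cover the whole gene, including any exon outside the floxed part. Cd4 stood at 873 ± 35.6 CPM in WT against 957 ± 43.6 CPM in cKO.

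A T cell assembles its receptor genes by V(D)J recombination, which joins 1 V segment to a J segment (with a D segment between them in the beta and delta chains) and reads the joined exon through to a constant segment. Most CD4+ T cells carry an alpha-beta receptor, so the Trav and Trbv segments in their RNA reflect which V segments the cells chose, and the share of a segment among all V counts is called its usage. Beta chains are assembled before alpha chains in the thymus, and the Cd4 promoter becomes active there at the stage at which alpha chains are assembled. Fewer cells that use a segment and less receptor RNA per cell cannot be told apart in bulk RNA.

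The 3′ ends of the coding sequence of a few members are printed because they show what a V segment contributes to the receptor and why close copies are hard to count apart. Each run holds the last 60 coding bases, 5′ to 3′, from GENCODE M21 transcripts on GRCm38/mm10. Capitals mark the first in-frame cysteine codon among the last 20 bases, where the conserved cysteine that opens the hypervariable CDR3 loop is encoded. The first set holds the beta segments with the largest falls in cKO, and Trbv15, whose usage was higher in cKO on average:
Trbv1: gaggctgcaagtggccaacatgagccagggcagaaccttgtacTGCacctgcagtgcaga
Trbv19: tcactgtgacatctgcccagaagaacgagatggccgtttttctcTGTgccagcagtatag
Trbv31: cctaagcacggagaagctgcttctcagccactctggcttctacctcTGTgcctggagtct
Trbv15: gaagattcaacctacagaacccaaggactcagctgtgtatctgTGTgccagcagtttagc

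These lie at chr6:40891826-40891885 (Trbv1), chr6:41178989-41179048 (Trbv19) and chr6:41141599-41141658 (Trbv15) on the plus strand, and at chr6:41557693-41557752 on the minus strand for Trbv31, which sits in inverted orientation at the far end of the locus. The tails of Trbv19 and Trbv15 share the run TGTgccagcagt, which Trbv1 and Trbv31 lack. The second set holds the Trbv13 subgroup, which includes the most used beta segment:
Trbv13-1: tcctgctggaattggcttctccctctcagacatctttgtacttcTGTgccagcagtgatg
Trbv13-2: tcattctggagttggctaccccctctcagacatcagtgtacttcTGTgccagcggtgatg
Trbv13-3: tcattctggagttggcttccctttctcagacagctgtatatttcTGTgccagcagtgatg

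Over the whole coding sequence, Trbv13-2 and Trbv13-3 were 90.6% identical (32 mismatches in 340 aligned bases), Trbv13-1 and Trbv13-2 87.9%, and Trbv13-1 and Trbv13-3 85.3%. The third set holds copies of Trav14, the subgroup with the largest share of alpha counts, in which duplication of the locus has left several near-identical segments:
Trav14-1: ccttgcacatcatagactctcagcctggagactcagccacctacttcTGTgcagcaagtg
Trav14-2: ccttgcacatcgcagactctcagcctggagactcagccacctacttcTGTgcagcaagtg
Trav14-3: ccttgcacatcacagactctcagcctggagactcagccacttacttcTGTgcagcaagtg
Trav14n-3: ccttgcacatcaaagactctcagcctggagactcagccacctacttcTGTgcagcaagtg

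Their coding sequences were between 92.6% identical (Trav14-1 and Trav14n-3) and 97.2% identical (Trav14-3 and Trav14n-3, with 10 mismatches in 361 aligned bases). Of the 50-base stretches of each, 95.1% in Trav14-1, 54.4% in Trav14-2, 53.9% in Trav14n-3 and 43.3% in Trav14-3 occurred in no other annotated gene. How the authors' counting treated reads that match more than 1 copy is not given in the sources used here. Values of single Trav copies are therefore uncertain, and subgroup sums are given beside them.

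How far this reaches was measured as the share of a segment's 50-base stretches that occur in no other annotated gene. For the 21 Trbv members the median share was 100%, and 17 were fully unique. Trbv5 was the exception at 22.6%, with sequence shared with the annotated gene 5830405F06Rik. For the 62 Trav members the median share was 56.5%, 8 were fully unique and 22 were under 50%. Levels moved with this measure among Trav segments: the median was 0.415 CPM for the 22 segments under 50%, 0.773 CPM for the 30 segments from 50% to under 90%, and 0.999 CPM for the 10 segments from 90% upwards. The part that lost or split reads play in low Trav levels was not tested.

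**Figure D1:**
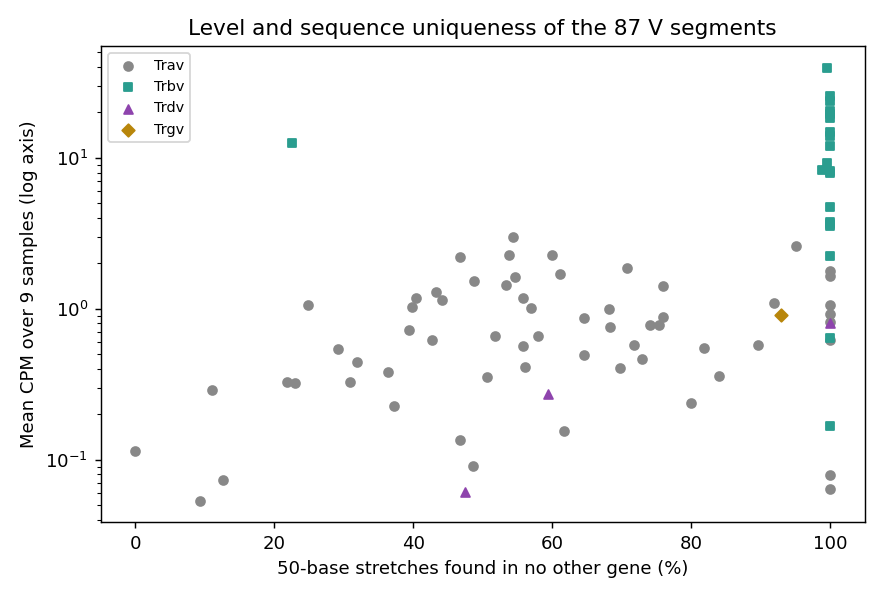
Mean level of each of the 87 V segments over the 9 samples (CPM, log axis) against the percentage of its 50-base stretches found in no other annotated gene, with 1 point per segment and colour and shape by chain. All Trbv segments but Trbv5 (22.6%) lie at the right edge, while Trav segments spread from 0 to 100% and none exceeds 3 CPM.

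V segments took a small part of each library. Total counts ran from 20587482 to 26387488 per sample, and the 87 members held between 6246 and 9293 counts in each, of which the Trbv segments held 5079 to 7729 and the Trav segments 1101 to 1528. Over all samples the members held 65155 counts, with 53337 in Trbv, 11389 in Trav, 238 in Trdv and 191 in the single Trgv segment. Trbv segments took 82.5 ± 0.549% of all V counts in WT (SD, n = 5) and 80.8 ± 0.812% in cKO (n = 4), and Trav segments took 16.9 ± 0.42% and 18.4 ± 0.888%. In both chains the WT and cKO ranges of these shares did not overlap, with the highest Trbv share in cKO at 81.8% and the lowest in WT at 81.9%. These shares count reads without regard to length or uniqueness and do not compare the amounts of the 2 chains.

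Counts summed over the beta V segments were lower in cKO, and 7 of these segments fell. Of the 87 members, 67 had enough counts to be tested (20 of 21 Trbv, 45 of 62 Trav, 1 of 3 Trdv and the Trgv segment). At an adjusted p below 0.05 over all 14693 genes tested, 7 Trbv segments fell and none rose, and 13 were not called. Among all genes tested, 15.8% were called, 8.82% as lower and 7.0% as higher. The median log2 difference of the 20 tested Trbv segments was -0.19 (range -0.56 to 0.09), with 18 below 0, and that of the 45 tested Trav segments was -0.04, with 25 below 0. Over all genes tested the median was 0.0012, with 49.6% of genes below 0. The CPM of the groups did not overlap for 5 of the tested Trbv segments and for none of the tested Trav segments, against 15.9% of all genes tested. Among members too low to test, Trav20, with 17 counts in all, also had groups that did not overlap. At an unadjusted p below 0.05, 10 Trbv segments were lower and 0 higher, against 16.3% and 14.9% of all genes. DESeq2's Wald test called 8 Trbv segments as lower, adding Trbv20, and limma-voom called 7. These segments belong to 1 locus and are counted in the same cells, so they are not independent of each other.

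**Figure D2:**
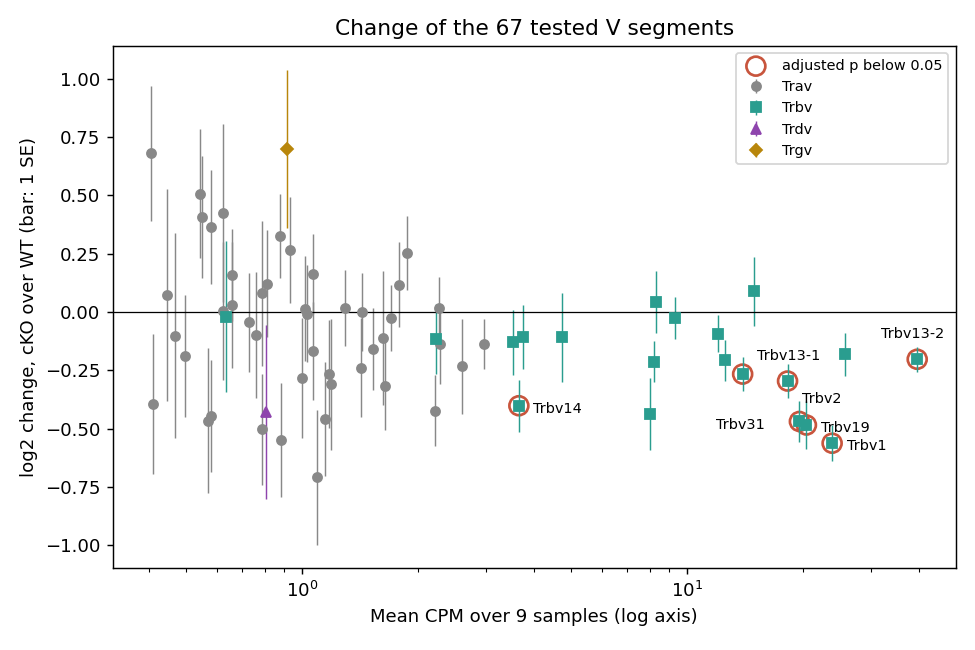
Log2 difference between cKO and WT (edgeR, bars are 1 SE) against mean CPM over 9 samples (log axis) for the 67 tested V segments, with 1 point per segment. The 7 segments with an adjusted p below 0.05 (red rings) are all Trbv and all lie below 0, at -0.56 for Trbv1 to -0.20 for Trbv13-2.

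Trbv1 (ENSMUSG00000076461, chromosome 6, 40891229 to 40891885), the first beta segment of the locus, had the largest difference among Trbv segments. It held 25.7, 27.3, 30.0, 26.7 and 29.5 CPM in WT samples 1, 3, 4, 5 and 9, and 21.2, 16.2, 19.7 and 18.2 CPM in cKO samples 2, 6, 7 and 8. Every cKO sample lay below every WT sample, with the nearest pair cKO 2 and WT 1. From a mean of 27.8 ± 1.83 CPM to one of 18.8 ± 2.11 CPM, Trbv1 fell by 0.56 in log2 units (SE 0.08, edgeR adjusted p = 0.00144), which means that it fell by 32.3%.

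Trbv31 (ENSMUSG00000076499, chromosome 6, 41557691 to 41558452), at the opposite end of the locus and the only one printed above that is read from the minus strand, showed a similar pattern. WT samples 1, 3, 4, 5 and 9 held 19.3, 22.7, 24.3, 23.7 and 21.8 CPM, and cKO samples 2, 6, 7 and 8 held 17.7, 14.04, 17.4 and 15.4 CPM. The groups did not overlap, and the segment fell by 0.47 (SE 0.09, edgeR adjusted p = 0.00534), so that it fell by 27.8%. Trbv19 (ENSMUSG00000076475, chromosome 6, 41178375 to 41179048) lies in the middle of the locus. It was counted at 20.1, 23.1, 25.1, 23.9 and 24.8 CPM in the WT samples in the same order, and at 17.3, 13.2, 19.6 and 16.8 CPM in the cKO samples. WT 1 at 20.1 CPM and cKO 7 at 19.6 CPM came closest without overlap, and the segment fell by 0.48 (SE 0.10, edgeR adjusted p = 0.0111), so that it decreased by 28.5%. Without TMM these 2 samples crossed. WT 1 held 518 Trbv19 counts of 26205800, a smaller share than the 409 of 20587482 in cKO 7. Trbv1, Trbv31 and Trbv19 were called in all 9 fits that left out 1 sample and in all 6 other settings.

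The other 4 called segments had smaller falls or lower counts. Trbv2 held 17.9, 20.1, 19.8, 21.2 and 20.5 CPM in the WT samples and 14.7, 15.4, 18.2 and 16.5 CPM in the cKO samples. Only cKO 7 (18.2 CPM) and WT 1 (17.9 CPM) crossed, and Trbv2 fell by 0.30 (SE 0.07, edgeR adjusted p = 0.0211). Without cKO 6 its adjusted p was 0.0686 in edgeR.

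Trbv13-2, the most used segment in every sample, held 37.6, 43.8, 44.0, 40.9 and 44.2 CPM in the WT samples and 36.6, 35.5, 36.3 and 38.0 CPM in the cKO samples. The groups met at WT 1 and cKO 8, and the segment fell by 0.20 (SE 0.05, edgeR adjusted p = 0.0276), so that it decreased by 13.1%. Trbv13-1, of the same subgroup, held 14.9, 14.4, 16.6, 14.7 and 14.9 CPM in WT and 11.4, 12.3, 12.5 and 13.95 CPM in cKO, with no overlap. Trbv13-1 fell by 0.27 (SE 0.07, edgeR adjusted p = 0.0282). Trbv14 held 4.26, 3.65, 4.50, 3.97 and 4.12 CPM in WT and 3.33, 2.61, 3.27 and 3.22 CPM in cKO, also without overlap, and fell by 0.40 (SE 0.11, edgeR adjusted p = 0.0311). The calls for Trbv13-2, Trbv13-1 and Trbv14 were lost in 6, 5 and 5 of the 9 fits that left out 1 sample, with adjusted p from 0.0504 to 0.096 in edgeR, and that of Trbv14 also without a count filter (edgeR adjusted p = 0.0542). The loss came without WT 4, WT 9, cKO 6 or cKO 7 for each of them, without cKO 2 for Trbv13-2 and Trbv13-1, without WT 3 for Trbv13-2 and without cKO 8 for Trbv14.

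The third member of the subgroup, Trbv13-3, was at 9.38 ± 0.959 CPM in WT (n = 5) against 9.23 ± 0.639 CPM in cKO (n = 4), and its log2 difference was -0.03 (SE 0.09, edgeR adjusted p = 0.878). Summed, the 3 Trbv13 segments stood at 66.6 CPM in WT against 58.4 CPM in cKO, and the sum fell by 0.19 (SE 0.05, edgeR adjusted p = 0.0192). Whether Trbv13-3 differed from the other Trbv13 segments in its response was not tested.

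**Figure D3:**
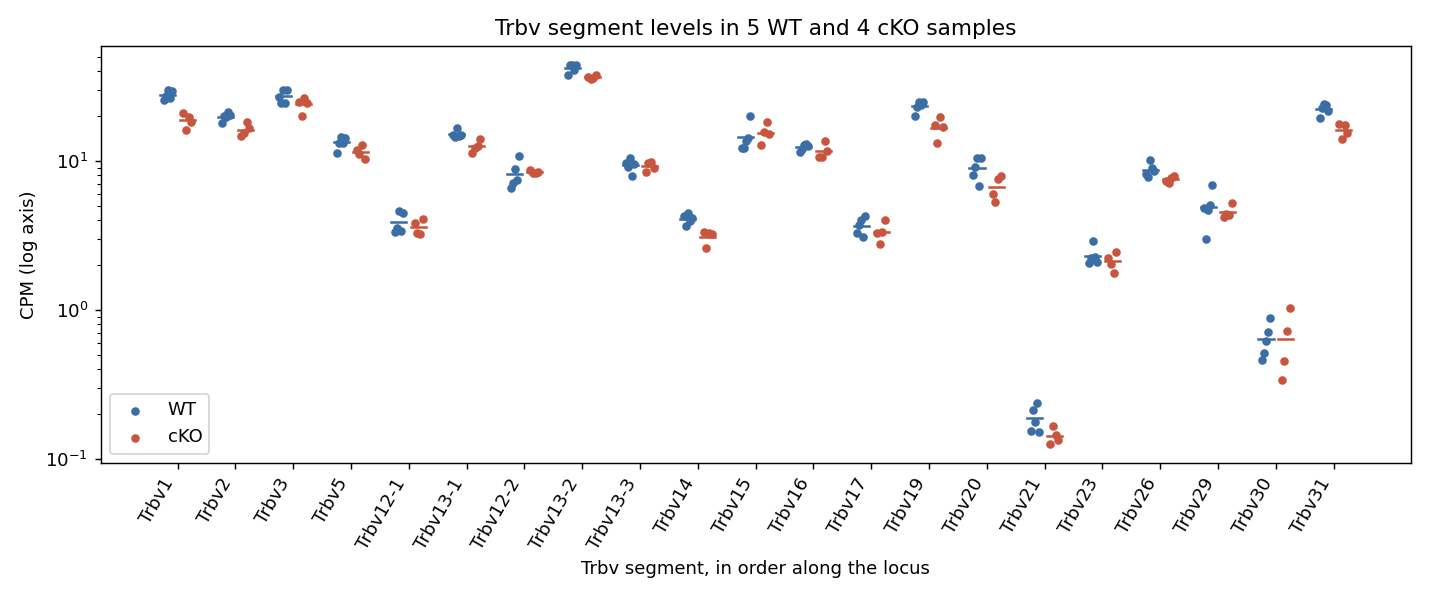
CPM of the 21 Trbv segments in each of 5 WT and 4 cKO samples (log axis), in order along the locus, with 1 point per sample and a line at each group's mean. The groups of Trbv1, Trbv13-1, Trbv14, Trbv19 and Trbv31 are apart, while Trbv15 and Trbv12-2 have a slightly higher mean in cKO.

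Among the 13 tested Trbv segments that were not called, the edgeR adjusted p ran from 0.0757 (Trbv20) to 0.976 (Trbv30). Trbv20 was at 9.03 ± 1.60 CPM in WT (n = 5) against 6.70 ± 1.24 CPM in cKO (n = 4), a log2 difference of -0.44 with a wide SE of 0.15. Trbv3, the second most used beta segment, held 26.8, 24.5, 29.9, 24.5 and 30.1 CPM in the WT samples and 24.7, 20.05, 26.4 and 24.7 CPM in the cKO samples. The groups overlapped in most samples, and the log2 difference was -0.18 (SE 0.09, edgeR adjusted p = 0.197). Trbv5 stood at 13.3 ± 1.22 and 11.5 ± 1.08 CPM (log2 difference -0.21, SE 0.09, edgeR adjusted p = 0.131), and Trbv16 at 12.4 ± 0.612 and 11.6 ± 1.35 CPM (-0.09, SE 0.08, edgeR adjusted p = 0.473).

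Trbv15 and Trbv12-2 were the 2 tested Trbv segments with a difference above 0. Trbv15 held 12.3, 12.3, 13.7, 14.4 and 20.004 CPM in the WT samples and 12.8, 15.7, 18.3 and 15.1 CPM in the cKO samples. WT 9 was higher than every other sample, and the log2 difference of 0.09 (SE 0.15, edgeR adjusted p = 0.724) was within the spread. Trbv12-2 was at 8.21 ± 1.72 CPM in WT against 8.47 ± 0.166 CPM in cKO, with WT 9 again the highest at 10.9 CPM. Among Trbv segments with at least 0.5% of the locus, Trbv29, Trbv15 and Trbv23 had the widest spread of locus share within a genotype relative to its mean. In CPM, Trbv29 and Trbv23 ran from 3.01 CPM (WT 3) to 6.87 CPM (WT 9) and from 2.05 CPM (WT 1) to 2.91 CPM (WT 4) within WT.

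Read as usage, 2 beta segments had ranges that did not overlap between the genotypes. Trbv1 took 8.49, 8.58, 8.47, 8.22 and 8.31% of all V counts in WT samples 1, 3, 4, 5 and 9, and 7.58, 6.20, 6.58 and 6.24% in cKO samples 2, 6, 7 and 8. The WT samples lay within a narrow band, and every cKO sample was below it. Trbv19 took 6.62, 7.26, 7.08, 7.38 and 6.99% in the WT samples and 6.21, 5.03, 6.55 and 5.75% in the cKO samples, also without overlap. As a share of Trbv counts alone, the means were 10.2 ± 0.179% and 8.22 ± 0.755% for Trbv1 and 8.56 ± 0.344% and 7.27 ± 0.755% for Trbv19. They were the only 2 of the 21 Trbv members whose locus shares did not overlap between the groups, and 0 of the 62 Trav members did so. In CPM, a different measure, the groups did not overlap for 15.9% of all genes tested, so 2 of 21 is not above that share. As a share of all V counts, the pseudogene Trav8-2 did not overlap either, at 0.238 ± 0.0271% in WT (n = 5, at most 0.268%) and at least 0.300% in cKO (n = 4), while its CPM overlapped and was not called (log2 difference 0.33, SE 0.18, edgeR adjusted p = 0.288).

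For Trbv31 the usage overlapped although its CPM did not. It took 6.36, 7.15, 6.86, 7.29 and 6.16% of all V counts in the WT samples and 6.34, 5.36, 5.81 and 5.26% in the cKO samples, and cKO 2 lay above WT 9. Trbv13-2, whose CPM fell, had a usage of 12.7 ± 0.598% of all V counts in WT (n = 5) and 12.9 ± 0.604% in cKO (n = 4). Trbv15 usage was 4.05, 3.86, 3.86, 4.43 and 5.64% in the WT samples and 4.59, 5.99, 6.12 and 5.15% in the cKO samples, with a higher mean in cKO. WT 9 stood among the cKO values, and without it the WT mean of Trbv15 usage was 4.05% in place of 4.37%. In all, 8 Trbv segments had a lower and 13 a higher mean share of Trbv counts in cKO, which follows in part from shares summing to a fixed total.

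**Figure D4:**
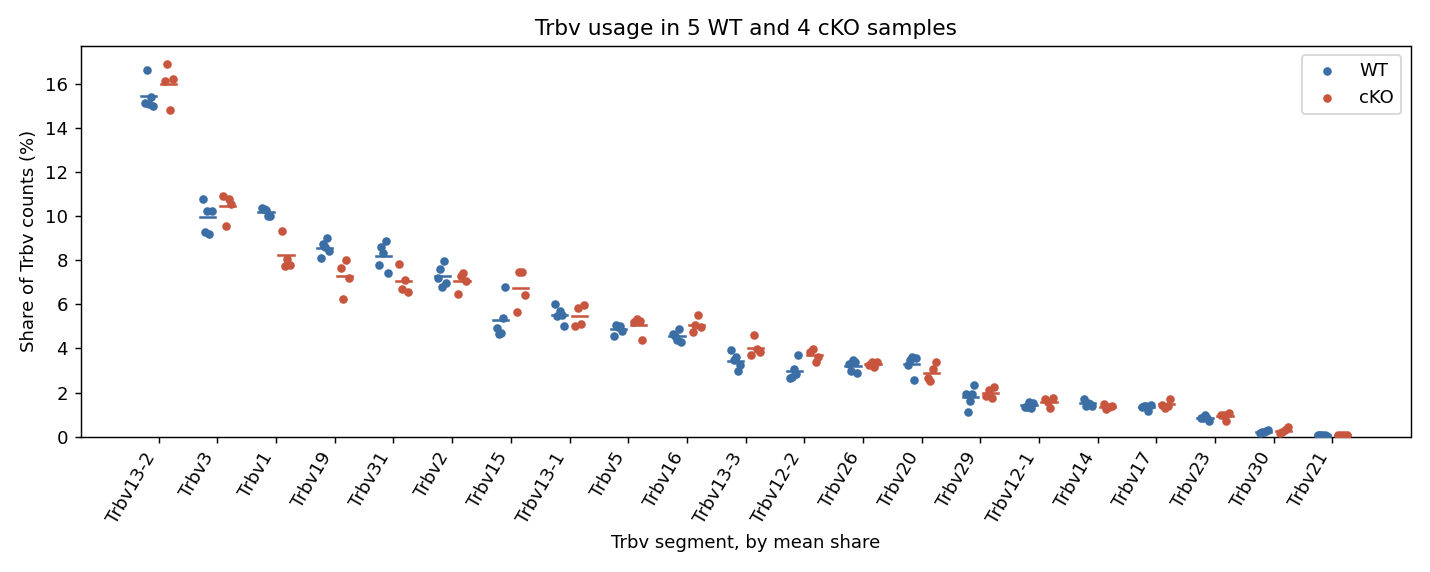
Share of Trbv counts (%) taken by each of the 21 Trbv segments in 5 WT and 4 cKO samples, ordered by mean share, with 1 point per sample and a line at each group's mean. Trbv13-2 leads in both groups, and Trbv1 and Trbv19 are the segments whose groups are apart.

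Per length, Trbv13-2 had the highest level of the Trbv members at 117 CPM per kilobase of exon, followed by Trbv1 at 57.2 and Trbv3 at 56.6, and Trbv21 had the lowest of the Trbv members at 0.437. Trbv21 (0.167 CPM over the 9 samples) was the Trbv member with too few counts to test. By mean CPM, Trbv1 ranked just above Trbv3 in WT and below it in cKO. Their means differed by less than the SD of Trbv3 in WT, while in cKO Trbv3 was at 23.96 ± 2.73 CPM and Trbv1 at 18.8 ± 2.11 CPM.

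The evenness of beta usage differed little between genotypes. The Shannon entropy of Trbv usage, which rises as counts are spread more evenly over segments, was 3.92 ± 0.0233 bits in WT (SD, n = 5) and 3.94 ± 0.0189 bits in cKO (n = 4), with overlapping ranges. The 5 most used Trbv segments together took 52.1, 53.6, 52.5, 52.5 and 51.0% of Trbv counts in the WT samples, and 51.8, 48.9, 49.1 and 48.8% in the cKO samples. cKO 2 lay among the WT samples, and the other 3 cKO samples lay below all of them. For Trav the entropy was 5.50 ± 0.0227 and 5.51 ± 0.0149 bits, and the 5 most used segments took 23.5 ± 1.33% and 23.0 ± 0.836%.

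Samples were also compared in pairs by the percentage of Trbv counts that would have to change segment to make their usage equal. That percentage was 2.80 to 5.62 in the 10 pairs of WT samples (median 4.23), 4.16 to 6.16 in the 6 pairs of cKO samples (median 4.86) and 4.399 to 8.78 in the 20 pairs of 1 WT and 1 cKO sample (median 6.53). The largest value was that of WT 4 and cKO 6. Chi-square per degree of freedom, a measure of difference relative to counting noise, had medians of 1.9998 within WT, 2.12 within cKO and 4.01 between them for Trbv (ranges 0.82 to 4.58, 1.80 to 2.82 and 1.90 to 7.76). For Trav the 3 medians were 1.24, 1.247 and 1.28. Pairs share samples and are given as a description.

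In TMM-scaled CPM, summed Trbv levels did not overlap between the genotypes, whereas summed Trav levels did. All Trbv counts came to 248, 264, 292, 266 and 295 CPM in the WT samples and 227, 210, 245 and 234 CPM in the cKO samples, though WT 1 (248 CPM) and cKO 7 (245 CPM) came close. The cKO mean of 229 ± 14.7 CPM (n = 4) was 83.9% of the WT mean of 273 ± 19.96 CPM (n = 5). All Trav counts came to 52.8, 52.5, 59.4, 55.7 and 58.3 CPM in WT and 49.5, 50.2, 52.9 and 56.3 CPM in cKO, which overlap, with means of 55.8 ± 3.13 and 52.2 ± 3.08 CPM. Over both chains and the rarer ones, the sum was 331 ± 22.8 CPM in WT against 283 ± 16.7 CPM in cKO. As a plain share of library counts, without TMM, the V segments took 0.0328 ± 0.00238% in WT and 0.0286 ± 0.00168% in cKO, and these ranges overlapped. The plain Trbv shares overlapped too. WT 1 held 6408 Trbv counts of 26205800, a smaller share than the 5108 of 20587482 in cKO 7.

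The constant segments, which every rearranged chain carries whatever its V segment, were read beside these sums. Trbc1 and Trbc2 are the 2 constant segments of the beta chain and Trac that of the alpha chain. Trbc1 held 66.2, 75.0, 82.7, 72.4 and 81.4 CPM in the WT samples and 55.8, 53.9, 60.5 and 55.1 CPM in the cKO samples, with no overlap, and fell by 0.42 (SE 0.07, edgeR adjusted p = 0.0023). Trbc2 held 115, 118, 140, 123 and 145 CPM in WT and 105, 99.2, 116 and 108 CPM in cKO. It overlapped at WT 1 and cKO 7 and fell by 0.26 (SE 0.07, edgeR adjusted p = 0.0323), a call lost without WT 4, WT 9, cKO 2, cKO 6 or cKO 8 (edgeR adjusted p from 0.0637 to 0.101). Trac held 194, 209, 229, 215 and 224 CPM in WT and 191, 193, 205 and 212 CPM in cKO, and its log2 difference was -0.10 (SE 0.05, edgeR adjusted p = 0.23).

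Relative to its constant segments, the beta V total was not lower in cKO. There were 134 ± 3.10 Trbv counts per 100 counts of Trbc1 and Trbc2 in WT (range 130 to 137) and 140 ± 2.59 in cKO (range 137 to 143), and these ranges were just apart, with the cKO values higher. Trav counts per 100 Trac counts were 26.1 ± 0.754 and 26.1 ± 0.353. Trbc1 took 37.1 ± 1.05% of Trbc1 and Trbc2 counts in WT and 34.5 ± 0.621% in cKO, again without overlap. Trbc1 and Trbc2 are close copies of each other, so that reads shared between them make this split uncertain. Trbv counts per 100 Trav counts were 489 ± 15.3 in WT and 439 ± 25.4 in cKO, without overlap.

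**Figure D5:**
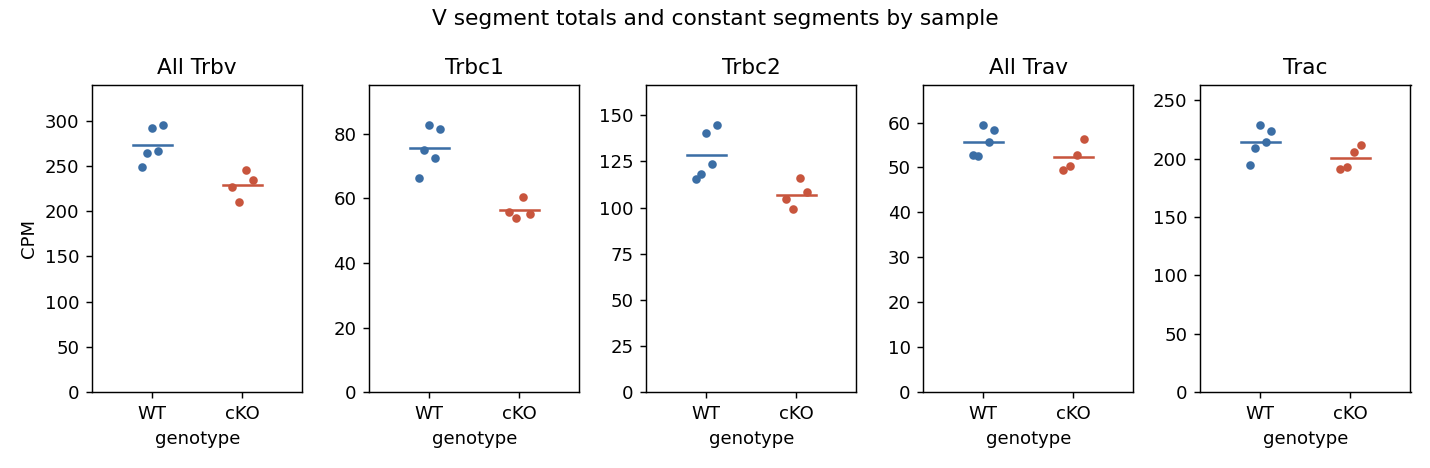
CPM summed over all Trbv and all Trav segments and CPM of the constant segments Trbc1, Trbc2 and Trac in each of 5 WT and 4 cKO samples (1 point per sample, line at the group mean, axes from 0). The WT and cKO points are apart for all Trbv (WT from 248, cKO up to 245 CPM) and for Trbc1, and overlap for Trbc2, all Trav and Trac.

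Of the Trav segments, 45 were tested and 0 were called by edgeR, by DESeq2 or by limma-voom, with edgeR adjusted p from 0.0845 to 0.998. Among all genes tested, edgeR called 15.8%. At an unadjusted p below 0.05 in edgeR, 1 Trav segment was higher and 3 were lower, against 14.9% and 16.3% of all genes tested. The lowest adjusted p was that of Trav4-4-dv10, which was counted at 2.60, 2.06, 2.12, 2.79 and 2.94 CPM in the WT samples and 1.86, 1.78, 1.63 and 2.19 CPM in the cKO samples. Its ranges overlapped at cKO 8, and its log2 difference was -0.42 (SE 0.15, edgeR adjusted p = 0.0845). The low counts limit what could be seen: the median level was 0.694 CPM for Trav members and 9.31 CPM for Trbv members. The biological coefficient of variation leaves out this counting noise. Its median was 13.01% for tested Trav segments and 8.91% for tested Trbv segments, against 7.20% for all genes tested.

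The most used Trav segments were copies of Trav14. Trav14-2 led at 3.10 ± 0.152 CPM in WT (n = 5) against 2.81 ± 0.281 CPM in cKO (n = 4), followed by Trav14-1 at 2.78 ± 0.702 and 2.37 ± 0.433 CPM and Trav14n-3 at 2.38 ± 0.505 and 2.16 ± 0.28 CPM. Summed, the 5 Trav14 members took 20.2 ± 1.47% of Trav counts in WT and 19.8 ± 1.64% in cKO, and their summed log2 difference was -0.12 (SE 0.08, edgeR adjusted p = 0.33). Trav3-3 was at 2.26 ± 0.243 and 2.29 ± 0.235 CPM, Trav12-2 at 1.72 ± 0.294 and 2.05 ± 0.24 CPM, Trav17 at 1.72 ± 0.129 and 1.87 ± 0.531 CPM, and Trav14d-3-dv8 at 1.72 ± 0.205 and 1.68 ± 0.155 CPM.

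Some Trav segments spread widely within a genotype. Trav13-1 ran from 0.945 CPM (WT 3) to 2.12 CPM (WT 4) in WT and, in cKO, from 1.04 CPM (cKO 6) to 2.59 CPM (cKO 8), and Trav21-dv12 from 1.68 to 2.06 CPM in WT and, in cKO, from 0.928 CPM (cKO 2) to 1.95 CPM (cKO 6). Among Trav segments with at least 0.5% of the locus, Trav8d-2, Trav9n-4 and Trav9d-1 had the widest spread of locus share within a genotype relative to its mean. Trav8d-2 ran from 0.0882 to 0.859 CPM in WT, Trav9n-4 from 0.0844 to 0.528 CPM in cKO and Trav9d-1 from 0.0828 to 0.672 CPM in cKO. Each of these 3 had 99 counts or fewer over all samples, and none of the tested ones was called.

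Copies of a subgroup were also summed, so that the value no longer depends on the copy to which a read was assigned, although reads left out by the counting stay out. The 62 Trav members fell into 20 subgroups. The shares of Trav counts overlapped between WT and cKO in all of them but Trav7, whose 6 members took 6.23 ± 0.297% in WT (n = 5, at most 6.68%) and 7.34 ± 0.36% in cKO (n = 4, at least 6.90%). In CPM the Trav7 sum had a log2 difference of 0.14 (SE 0.11, edgeR adjusted p = 0.429). For comparison, 15.9% of all genes tested had CPM groups that did not overlap. Trav15, with 2 members, took 2.65 ± 0.674% and 1.81 ± 0.516%, with a log2 difference of -0.65 (SE 0.27, edgeR adjusted p = 0.123).

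Invariant T cells carry a fixed alpha chain, and their segments were looked at by name. Trav1, which mucosal-associated invariant T cells use, was at 0.779 CPM in WT against 0.856 CPM in cKO (log2 difference 0.12, SE 0.23, edgeR adjusted p = 0.762). Trav11 and Trav11d, the segments of invariant natural killer T cells, are in the table with 0 counts in all 9 samples. In the annotation, 0% of the 50-base stretches of either were unique, so a count of 0 sets no limit on their level if reads that match several copies were left out. Traj18, the joining segment of that chain, was counted at 0.503 CPM in WT and at 0.473 CPM in cKO. Zbtb16, which encodes the transcription factor PLZF of innate-like T cells, fell by 1.42 (SE 0.24, edgeR adjusted p = 0.00376), from 1.33 ± 0.27 to 0.49 ± 0.151 CPM.

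The delta and gamma V segments were rare. Trdv1 was at 0.915 ± 0.346 CPM in WT (n = 5) against 0.67 ± 0.375 CPM in cKO (n = 4), and its log2 difference was -0.43 (SE 0.37, edgeR adjusted p = 0.469). Trdv5 was at 0.331 and 0.196 CPM and Trdv2-2 at 0.0756 and 0.0431 CPM, and both had too few counts to test. Part of the sequence of Trdv5 is shared with an annotated transcript of the delta constant segment. Trgv2 held 0.814, 0.644, 1.01, 0.661 and 0.458 CPM in the WT samples and 1.98, 0.704, 1.249 and 0.716 CPM in the cKO samples. cKO 2 was the highest by far, the groups overlapped, and the log2 difference was 0.70 (SE 0.34, edgeR adjusted p = 0.188). Other gamma V genes are named Tcrg-V in the annotation and fall outside the rule by symbol; the most abundant, Tcrg-V4, had 119 counts in all, at 0.552 ± 0.168 CPM in WT against 0.576 ± 0.265 CPM in cKO.

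Genes that act with the V segments were counted by list, beside 8.82% of all genes tested called as lower and 7.0% as higher. Of the constant segments, 6 were tested and 2 fell (Trbc1 and Trbc2), and none rose. Of the 4 CD3 and zeta chains, the signalling partners of the receptor, 2 fell: Cd3g by 0.23 (SE 0.06, edgeR adjusted p = 0.0311), from 180 ± 13.8 to 154 ± 10.6 CPM, and Cd3d by 0.19 (SE 0.06, edgeR adjusted p = 0.0476), from 183 ± 12.8 to 161 ± 9.72 CPM. Both calls were lost in 7 of the 9 fits that left out 1 sample, and that of Cd3d also with upper-quartile normalization. Cd3e and Cd247 had log2 differences of -0.06 and -0.13 and were not called. Of 6 genes of the pre-T cell receptor and of V(D)J recombination, 3 were tested and 0 were called, and the recombinase genes Rag1 and Rag2 had 8 counts and 1 count over all samples. Of 13 transcription factors listed for T cell receptor enhancers and promoters, 1 fell: E2f2, which encodes a regulator of cell cycle entry, by 0.48 (SE 0.10, edgeR adjusted p = 0.0116). The other 12 were not called, and 1 of 13 is near the 8.82% of all genes tested that were called as lower.

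Markers of other cells were counted in the same libraries, beside 8.82% of all genes tested called as lower and 7.0% as higher. These lists are short, so 1 call in a list is not read as a result about a cell type. Among 4 CD8 T cell markers, 1 rose: Cd8b1 by 0.28 (SE 0.08, edgeR adjusted p = 0.0296), from 11.6 ± 0.772 to 14.1 ± 1.23 CPM, a call lost in 6 of the 9 fits that left out 1 sample. Cd8a was counted at 1.80 and 2.70 CPM, and the summed list ran from 20.2 to 31.0 CPM in WT and, in cKO, from 26.3 to 60.1 CPM. The highest sum was that of cKO 2, where Eomes, another gene of the list, alone held 39.0 CPM. In the other cKO samples Eomes ran from 10.3 to 17.8 CPM, and it was not called (edgeR adjusted p = 0.115). Among 5 tested gamma-delta T cell markers 0 were called, with a summed range of 4.82 to 6.17 CPM in WT and, in cKO, of 5.14 to 9.15 CPM. Of 4 tested markers of mucosal-associated invariant T cells 2 fell (Zbtb16 and Il18r1), and of 4 tested markers of invariant natural killer T cells 1 fell (Zbtb16). Of 5 tested B cell markers 1 fell (Cd79b), and the summed list ran from 240 to 351 CPM in WT and, in cKO, from 255 to 291 CPM, almost all of it Ighm. Of 5 regulatory T cell markers 1 rose (Ikzf2) and 1 fell (Il2ra), with Foxp3 at 103 and 102 CPM. Il2ra stood far above Foxp3, at 3182 CPM in WT against 2569 CPM in cKO, and the cells that it came from were not tested. Of 7 CD4 T cell markers Cd4 and Cd5 rose and Trbc2 fell. The Cd4 call was close to the limit (log2 difference 0.13, SE 0.04, edgeR adjusted p = 0.048), and its groups overlapped. Cd5 rose by 0.23 (SE 0.03, edgeR adjusted p = 0.0013) without overlap. Mitochondrial genes took 2.38 ± 0.0572% of counts in WT and 2.59 ± 0.138% in cKO. The part of these differences in the lower Trbv levels was not tested.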

How the data were processed

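RNA was measured in 9 samples, 5 WT and 4 cKO, grouped by the genotype in the labels. The authors deposited raw counts per gene, whole numbers without normalization. Per the labels' protocols, libraries were stranded and mRNA-enriched (KAPA kit). Of software, bcl2fastq 2.17 is named in the submitters' processing notes, and of builds mm10. Not given in the sources used here: the aligner, the counter and what was done with reads that match several genes. Columns were matched to samples by title, and 0 columns were left over. Symbols were found for 37607 of 39017 IDs, and GENCODE M21, also on mm10, gave positions and sequences.

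The members and lists were chosen with earlier results of these data known. All 9 samples were fitted together with edgeR 4.0.16 in R 4.3.3 (TMM, filterByExpr, quasi-likelihood F test, two-sided, no covariate), with Benjamini-Hochberg adjustment over all genes tested. Log2 differences are cKO over WT, and CPM uses TMM-adjusted totals. Usage shares, entropy, sums and pairs are descriptions without a test. Alternatives were leaving out each sample, summing copies by subgroup, upper-quartile scaling, DESeq2 size factors, either no count filter or one of 1 CPM in 4 samples, DESeq2 1.42.0 and limma-voom (limma 3.58.1). The edgeR step was also run on simulated counts, drawn for each gene separately from the dispersions that edgeR had fitted. Such counts cannot show how the step handles segments that vary together or share reads.

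Named segments were those called, the 10 most used Trav and Trbv, all Trdv and Trgv members, Trav1, Trav11, Trav11d and Trbv13 segments, the 3 per chain with the widest spread within a genotype (usage at least 0.5% of the locus), constant segments, CD3 chains and Kdm6a. Other genes are named as list members, neighbours of a limit or extremes, chosen after their values were seen. Promoter motifs and recombination signals were planned and are not analysed here. Reads carry no molecular identifiers, so counting noise understates the noise of molecules.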

Additional observations from a re-analysis of the deposited data

Results flagged for a closer look

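A sample stood far from the others of its genotype in 5 of the 96 groups of values examined, where chance flags about 1 in 20 groups. Trbv13-1 was highest in WT 4 at 16.6 CPM, against 14.4 to 14.9 CPM in the other WT samples. Trbv23 was also highest in WT 4, at 2.91 CPM against 2.05 to 2.27 CPM. Trbv15 was highest in WT 9 at 20.004 CPM, against 12.3 to 14.4 CPM. Trbv14 was lowest in cKO 6 at 2.61 CPM, against 3.22 to 3.33 CPM in the other cKO samples. The share of Trbv counts held by the 5 most used segments was highest in cKO 2 at 51.8%, against 48.8 to 49.1%.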

How the results depend on the processing

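The count of V segments lower in cKO was 7 and ran from 3 to 8 over the 9 fits that left out 1 sample, with 4 without WT 4, WT 9 or cKO 7 and 3 without cKO 6. The count of higher segments was 0 in all 16 other settings. The median log2 difference of tested V segments stayed below 0, from -0.16 to -0.06, and the difference in summed V levels (cKO minus WT) ran from -54.4 to -40.3 CPM around -47.5 CPM. The cKO minus WT difference in Trbv entropy was 0.0293 bits, and 0.00356 bits with segments summed by subgroup; the cause was not tested. No paired analysis was made, because the sample numbers run serially over both groups and do not show whether any samples were paired. Depth limits the Trav copies most: 17 Trav members had too few counts for the filter of the main fit and were not tested there. Without a count filter all 87 members were tested and 6 were called as lower, all among the 7 Trbv segments called in the main fit. A small difference in those 17 Trav members would be missed at this depth.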
